A study of Mus musculus with 6 samples.

Results

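Of the 750 miRNA assays on the rodent cards, 115 carry a name that ends in #, the sign used on the cards in place of the star of older miRNA names, for the arm of a hairpin thought to be the less abundant product. All 115 were chosen by name alone, and all of them sit on card B, which holds 260 other miRNA assays, while none of the 375 miRNA assays of card A has this sign. They are named for mouse in 64 cases, for human in 37 and for rat in 14. The material was blastocysts of Kunming mice, vitrified in 3 pools (V1, V2 and V3) and fresh in 3 others (F1, F2 and F3), from superovulated females aged 5 weeks. Blastocysts were collected 92 to 94 h after hCG and kept in CZB medium, and each pool joined 300 of them. The vitrified ones spent 30 seconds in a pretreatment solution with 10% ethylene glycol and 10% DMSO and 25 seconds in EDFS30 in an open-pulled straw, were plunged into liquid nitrogen, and were thawed in sucrose for 5 minutes. Whether the pools of a group came from separate collections was not stated, so the p-values given here measure the spread between these pools.

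A miRNA hairpin is cut by Drosha and Dicer into a short duplex of its 5p and 3p arms. Argonaute usually keeps one strand, the guide, and the other, the passenger or star strand, is discarded and degraded. The strand whose 5′ end is less tightly paired, and which starts with U or A, is favoured as the guide. Which arm is kept can differ between tissues, so that an arm named as the passenger in one tissue may be the more abundant product in another, and it has a seed, and with it a set of possible targets, of its own. The comparison of vitrified with fresh blastocysts asked whether the levels of these arms, or their balance against the other arm, differed with vitrification.

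The sequences that carry the contrast between both arms are those of the hairpins in which the # assay crossed its threshold earlier than its partner (miR-674, miR-193, miR-503, miR-29b and miR-872), of miR-322, a neighbour of miR-503, of hairpins with a large lag of the # assay (miR-191, miR-20a and let-7g), and of miR-16-1, whose 3p arm the study itself reports on. They are the mouse mature sequences of RefSeq (GRCm38.p6), written 5′ to 3′ with the seed, bases 2 to 8, in capitals. For each hairpin the arm that the # assay is named for comes first. The target sequences of the assays themselves were not used here.
mmu-miR-674-3p (#): cACAGCUCccaucucagaacaa
mmu-miR-674-5p: gCACUGAGaugggaguggugua
mmu-miR-193a-5p (#): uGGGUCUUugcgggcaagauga
mmu-miR-193a-3p: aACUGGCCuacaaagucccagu
mmu-miR-503-3p (#): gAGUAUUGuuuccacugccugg
mmu-miR-503-5p: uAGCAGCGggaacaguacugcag
mmu-miR-29b-1-5p (#): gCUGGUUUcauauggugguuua
mmu-miR-29b-3p: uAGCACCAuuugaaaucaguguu
mmu-miR-872-3p (#): uGAACUAUugcaguagccuccu
mmu-miR-872-5p: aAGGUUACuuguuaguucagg
mmu-miR-322-3p (#): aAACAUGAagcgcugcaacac
mmu-miR-322-5p: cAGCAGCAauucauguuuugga
mmu-miR-191-3p (#): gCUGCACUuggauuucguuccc
mmu-miR-191-5p: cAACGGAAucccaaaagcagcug
mmu-miR-20a-3p (#): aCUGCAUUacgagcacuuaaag
mmu-miR-20a-5p: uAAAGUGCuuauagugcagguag
mmu-let-7g-3p (#): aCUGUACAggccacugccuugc
mmu-let-7g-5p: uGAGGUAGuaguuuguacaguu
mmu-miR-16-1-3p (#): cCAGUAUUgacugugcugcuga
mmu-miR-16-5p: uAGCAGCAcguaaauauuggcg

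In GRCm38.p6 the # arm of miR-674 lies at chr2:117185186-117185207 (+ strand), that of miR-193a at chr11:79711975-79711996 (+) and that of miR-29b-1 at chr6:31063067-31063088 (-). Those of miR-503, at chrX:53053987-53054008 (-), and miR-322, at chrX:53054269-53054289 (-), lie side by side within the span of the lncRNA gene C430049B03Rik. The # arm of miR-872, at chr4:94665206-94665227 (+), falls within the span of the protein-coding gene Ift74, that of miR-191, at chr9:108568367-108568388 (+), within Dalrd3, and that of let-7g, at chr9:106178902-106178923 (+), within Wdr82. The # arm of miR-20a lies at chr14:115044219-115044240 (+), in the miR-17 to miR-92 cluster, and that of miR-16-1 at chr14:61631894-61631915 (-), within the lncRNA gene Dleu2.

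Both arms of a mouse hairpin could be matched in RefSeq for 77 of the 115 assays, which gave 73 different # arms and 71 different partner arms. The # arm was the 5p arm in 28 hairpins and the 3p arm in 45. The # arms began with U in 10 cases, A in 22, G in 13 and C in 28, whereas the partner arms began with U in 41 cases, A in 17, G in 4 and C in 9. The pairs printed above show the same contrast, with U as the first base of the partner arm in miR-503, miR-29b, miR-20a, let-7g and miR-16, and of the # arm in miR-193a and miR-872. The 73 arms held 64 different seeds, and 8 of these were shared by more than one arm. The shared seeds included UAUACAA, in the 3p arms of let-7a-1, let-7b and let-7f-1, CUGCAGU, in those of miR-17 and miR-20b, and AUCUUAC, in the 5p arms of miR-200a and miR-200b. A Ct in 4 or more pools was obtained for 6 of the 10 # arms that begin with U, 9 of the 22 with A, 8 of the 13 with G and 11 of the 28 with C.

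V1 and F1 stood apart from the other 4 pools, and the main counts, family medians and named changes they enter are therefore also given for V2, V3, F2 and F3 alone. The 7 marker assays without # for miR-290 to miR-295, the cluster that marks early mouse embryos, had no Ct in V1 or F1 (0 of 14 wells), whereas 6 of the 7 were determined in all of V2, V3, F2 and F3, at Ct values from 23.04 to 31.01. The wider list of 12 early embryo assays gave a Ct in 1 of 24 wells in V1 and F1. Only 6 of the 12 were determined in all of V2, V3, F2 and F3, and 3 had no Ct in any pool. The 4 blood markers were determined in all of V2, V3, F2 and F3 at Ct 21.9 to 24.8 and in 7 of 8 wells of V1 and F1, the 3 muscle markers in those 4 pools at Ct 23.01 to 30.12 and in 2 of 6 wells of V1 and F1, and 1 of the 2 neuron markers in those 4 pools, while the liver marker lacked a Ct in at least 1 of them. The part of any of these in the results below was not tested. The mean Ct of the 4 U6 wells of card B lay between 16.5 and 17.7 in every pool.

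The # assays were about as often detectable as the others on their card. A Ct under 40 cycles was obtained for 75 of the 115 in at least 1 pool (65.2%), compared with 148 of the 260 other card B assays (56.9%) and 267 of the 375 card A assays (71.2%). The number determined was 24 for V1, 56 for V2 and 54 for V3 among vitrified pools, and 15 for F1, 57 for F2 and 55 for F3 among fresh ones. On average 44.7 ± 17.9 (SD, n = 3) were found per vitrified pool. The fresh pools gave 42.3 ± 23.7 (SD, n = 3), and the difference of 2.33 assays lies within the spread. V1 and F1 were low in both groups, and the other 4 pools were alike. Counted over wells, 261 of 690 gave a Ct.

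**Figure D1:**
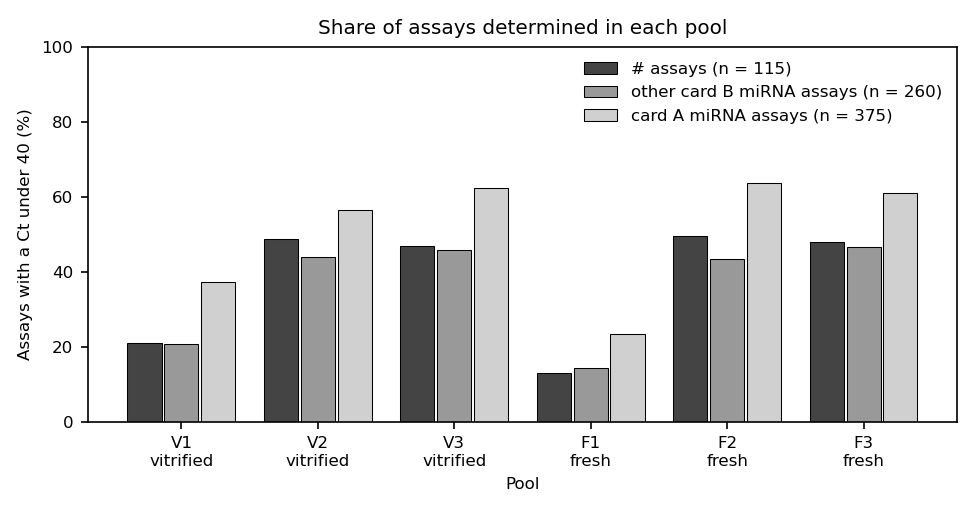
Percentage of assays with a Ct under 40 cycles (y axis) in each pool (x axis), for the 115 # assays, the 260 other miRNA assays of card B and the 375 of card A. V1 and F1 have the shortest bars in every class, with 20.9% and 13.0% of the # assays, against 47.0% to 49.6% in the other 4 pools.

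Of the 115, 40 had no Ct in any pool, 17 in 1 pool, 8 in 2, 8 in 3, 19 in 4, 10 in 5 and 13 in all 6. Those never determined included the # arms of miR-294, miR-302a, miR-302b, miR-92a, miR-19a, miR-141, miR-200c, miR-9, miR-124 and miR-133a. A well without a Ct leaves only a bound, at a ΔCt (the Ct minus the mean Ct of U6 on the same card) between 22.28 in V2 and 23.48 in V3. The 17 assays seen in a single pool were in V2 (4), V3 (7), F2 (3) and F3 (3), and no # assay was seen in V1 or F1 only. A total of 39 assays were determined in all of V2, V3, F2 and F3, and 25 in V1 or F1.

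The # arm of miR-34c, a miRNA known from germ cells and ciliated epithelia, had the lowest mean ΔCt, 7.69, of the 13 assays determined in every pool, but this place rested on V1 and F1. In V2, V3, F2 and F3 it averaged 9.54, behind hsa-miR-93# at 9.45. mmu-miR-34c# crossed the threshold at Ct 22.47, 27.27 and 27.09 in V1, V2 and V3 and at 20.07, 26.82 and 25.30 in F1, F2 and F3. It was thus earliest in the same pools in which most assays were late or undetermined. Its ΔCt was 4.81, 9.55 and 10.57 in the vitrified pools and 3.19, 9.88 and 8.14 in the fresh pools, so that V1 and F1 stood several cycles below the others and the groups overlapped.

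Next in order of mean ΔCt over all 6 pools came mmu-miR-877# (10.55), the 3p arm of a mirtron, and rno-miR-7# (10.74), an arm of the neuroendocrine miR-7. mmu-miR-138# (10.86) belongs to a brain miRNA, and hsa-miR-93# (11.05) to a hairpin within the span of Mcm7, a relative of miR-17. They were followed by mmu-miR-872# (11.41), mmu-miR-29b# (11.59), from a family known to repress DNA methyltransferases, rno-miR-7a# (11.60), mmu-miR-322# (12.21) and mmu-miR-674# (12.46). In V2, V3, F2 and F3 alone the order was hsa-miR-93# (9.45), mmu-miR-34c# (9.54), mmu-miR-877# (9.75), rno-miR-7# (9.91) and mmu-miR-872# (10.57). Then came mmu-miR-674# (10.57), mmu-miR-29b# (10.76), mmu-miR-138# (10.91), rno-miR-7a# (10.98) and, after mmu-miR-24-2# and mmu-miR-31#, mmu-miR-322# (11.13). The means of neighbours in either order differed by less than their spread over pools. Primers and probes differ between assays, so a difference in ΔCt between assays is not a ratio of molecules.

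Most of these 10 assays were late in V1 and F1. hsa-miR-93# had Ct values of 31.09, 27.08 and 26.55 in V1, V2 and V3 and of 31.97, 26.23 and 26.27 in F1, F2 and F3. mmu-miR-674# had 32.54, 28.25 and 27.10 in the vitrified and 34.49, 27.88 and 27.40 in the fresh pools. In both, V1 and F1 lay above the other pools, which were within about a cycle of each other. mmu-miR-138# did not show this in F1, with 29.92, 28.24 and 28.81 in the vitrified pools and 26.16, 28.28 and 26.63 in the fresh ones. A value in V1 or F1 was obtained for 25 # assays. Of these, 9 (36.0%) had a lower ΔCt there than on average in the other 4 pools. The median ΔCt shift of the 25 was 2.23 cycles upward (range -5.70 to 5.94). Among the other card B assays 15 of 58 (25.9%) had a lower ΔCt there, with a median shift of 2.30. Besides mmu-miR-34c#, hsa-miR-99b# (27.62 in V1 and 25.93 in F1 against 29.58 to 33.17 elsewhere) and rno-miR-204# (28.71 in V1 and 27.04 in F1 against 32.86 to 34.06 elsewhere, undetermined in V3) were the clearest such cases. The last 2 were named after their values were seen.

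**Figure D2:**
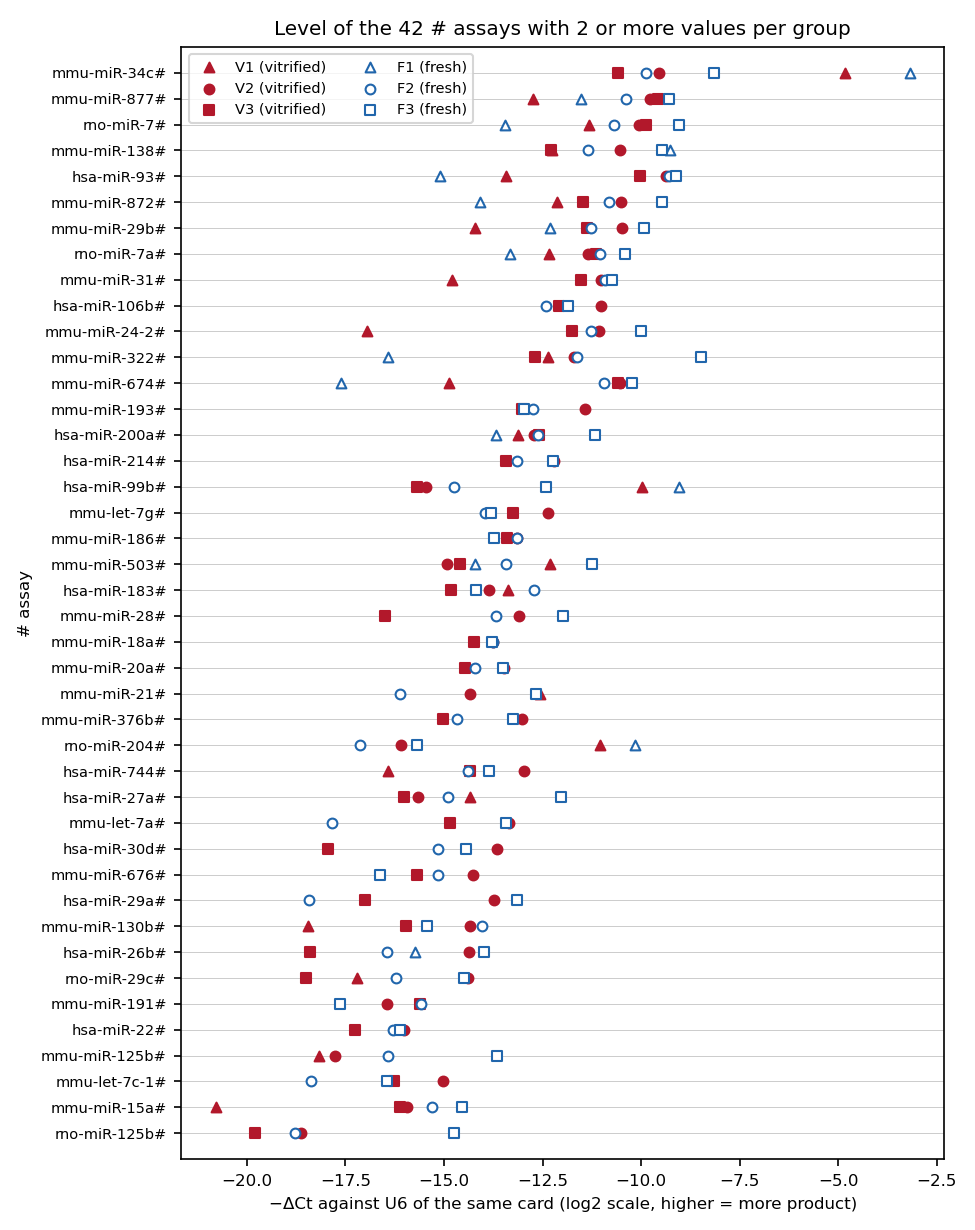
Level of the 42 # assays with at least 2 determined pools per group, as −ΔCt against U6 of the same card (x axis, log2 scale, higher values to the right), ordered by mean ΔCt (y axis), with filled red symbols for vitrified and open blue symbols for fresh pools and a triangle, circle or square for pools 1, 2 or 3. Vitrified and fresh symbols are mixed in most rows, while the triangles of V1 and F1 often lie apart, to the right for mmu-miR-34c# and to the left for mmu-miR-674#.

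A partner assay of exactly the same name without # was on the cards for 61 of the 115, on card A for 52 and on card B for 9. Another 36 could be set beside a partner that differed only in the species prefix, and 18 had none. Among the 61 exact pairs, both arms were determined somewhere in 37, the partner alone in 16, the # arm alone in 4 (miR-146b, miR-879, miR-302c and miR-470) and neither in 4. The partner was determined in more pools than the # arm in 38 pairs, in as many in 12 and in fewer in 11. Over wells the # arms gave a Ct in 137 of 366 and the partners in 257 of 366.

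The arm gap, the ΔCt of the # assay minus that of its partner, was above 0 in most pairs, which means that the # arm was detected later. Both arms were determined in at least 4 pools in 21 exact pairs, with a median gap of 4.13 cycles, and 15 of the 21 had a mean gap above 0. In V2, V3, F2 and F3, 19 pairs were complete, with a median gap of 4.54. In 14 of these the # arm was later in all 4 pools, and in 4 it was earlier in all 4. With partners matched without the species prefix as well, 31 pairs were complete in these pools, with a median of 4.68, of which 24 were above 0 and 6 below 0 in all 4. Because most partners were on the other card and each assay has its own efficiency, a gap is a difference between assays, and its size was not calibrated here.

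**Figure D3:**
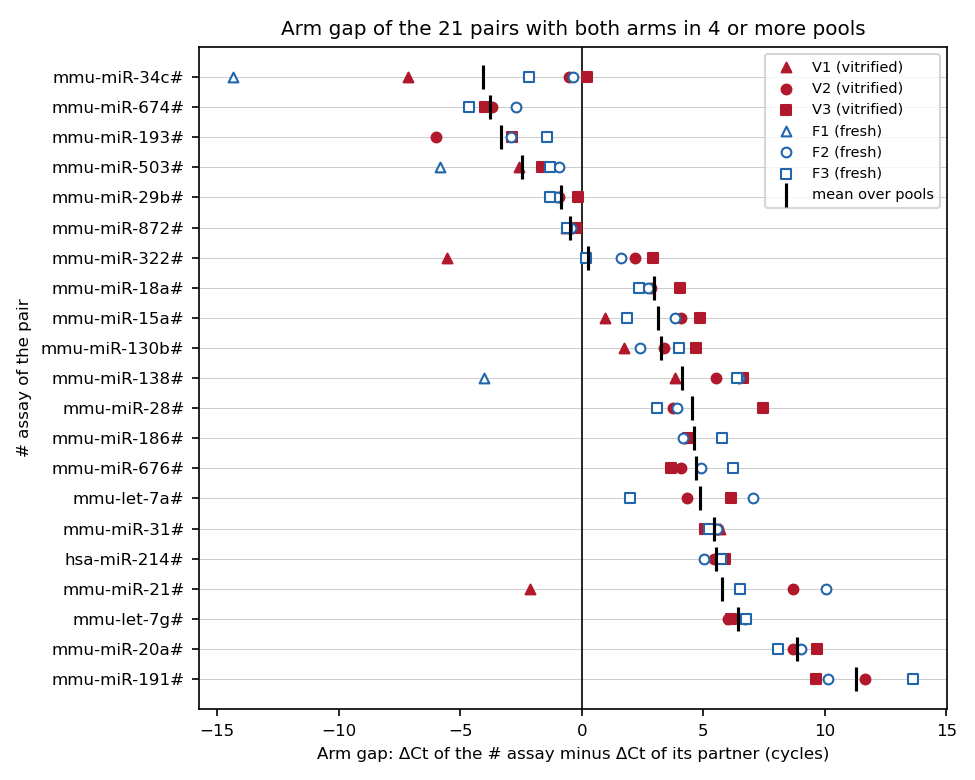
Arm gap (x axis, cycles), the ΔCt of the # assay minus the ΔCt of the assay of the same name without #, for the 21 exact pairs with both arms in at least 4 pools (y axis), with 1 symbol per pool and a black bar for the mean. Pairs range from -4.06 for miR-34c to 11.26 for miR-191, and the points left of 0 in the lower rows are from V1 and F1.

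A mean gap below 0 was found in 6 of the 21 pairs. mmu-miR-674# had gaps of -3.71 in V2, -3.99 in V3, -2.71 in F2 and -4.62 in F3, with a mean of -3.76 ± 0.79 (SD, n = 4). The partner mmu-miR-674 had no Ct in V1 or F1, whereas the # arm had one in both. mmu-miR-193# had gaps of -6.02, -2.87, -2.92 and -1.43 in the same 4 pools, with a mean of -3.31 ± 1.93 (SD, n = 4). In both hairpins the # arm was ahead in every pool in which the gap could be formed. For miR-193a this is the 5p arm, which begins with U, whereas the # arm of miR-674 begins with C and both its arms lack a first U.

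The # arm of miR-503 was also ahead in each of the 5 pools with both arms. miR-503 and miR-322 are made from neighbouring hairpins on the X chromosome and are relatives of miR-15 and miR-16 known to restrain the cell cycle. The gap of mmu-miR-503# was -2.57 in V1, -1.63 in V3, -5.83 in F1, -0.95 in F2 and -1.32 in F3, with a mean of -2.46 ± 1.98 (SD, n = 5). mmu-miR-29b# (mean -0.85 ± 0.50, SD, n = 4) and mmu-miR-872# (mean -0.47 ± 0.17, SD, n = 5) had means within a cycle of their partners and lay in every pool on the same side of 0. In miR-503 and miR-29b the partner begins with U and the # arm, which was ahead with these assays, with G. Another assay matched by name to the same miR-29b arm, rno-miR-29b-1#, was instead later than the partner. It had a Ct of 37.04, 29.07 and 36.87 in V2, V3 and F2, where mmu-miR-29b had 28.52, 28.47 and 28.88.

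For miR-34c the sign rested on V1 and F1. The gap was -7.14 in V1 and -14.36 in F1, but -0.55, 0.21, -0.35 and -2.19 in V2, V3, F2 and F3. The mean was -4.06 over 6 pools and -0.72 over those 4. While the # arm was early in V1 and F1, its partner was late, at Ct 29.77 and 34.62 against 26.82 to 27.33 in the other pools. Between groups the gap did not differ beyond the spread (2-sided exact permutation test over 3 against 3 pools, p = 0.6, where 0.1 is the smallest p possible).

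mmu-miR-322# shows what the choice of partner assay can do, since an assay named mmu-miR-322 is on both cards. Against that of card A its gap was 2.18, 2.94, 1.60 and 0.18 in V2, V3, F2 and F3 and -5.54 in V1, with a mean of 0.27 over the 5 pools. Against that of card B it was -2.96 in V1, -1.42 in V2, -3.12 in F2 and -2.01 in F3, with a mean of -2.38. The # arm was thus later than one partner assay and earlier than the other in the same RNA. Of the partners matched without the prefix, that of rno-miR-7a# gave a mean gap of -3.73. That of hsa-miR-183#, from an epithelial and sensory cluster, gave one of -1.13. Both were below 0 in each of V2, V3, F2 and F3. The name of rno-miR-7a# does not settle which arm it is for, so its pair may not be the 2 arms of a hairpin.

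Among the exact pairs with both arms in at least 4 pools, the widest gaps belonged to hairpins whose partner assay was early. mmu-miR-191# had gaps of 11.63, 9.66, 10.14 and 13.62 in V2, V3, F2 and F3, with a mean of 11.26 ± 1.78 (SD, n = 4). mmu-miR-20a#, from the proliferation-associated miR-17 to miR-92 cluster, had 8.69, 9.67, 9.02 and 8.06, with a mean of 8.86 ± 0.67 (SD, n = 4). mmu-let-7g#, from the differentiation-associated let-7 family, had 6.03, 6.16, 6.70 and 6.76, with a mean of 6.41 ± 0.37 (SD, n = 4). For let-7g and miR-20a the 4 pools were close together. The earlier partner arm begins with U in let-7g and miR-20a and with C in miR-191. Among exact pairs they were followed by mmu-miR-21# (mean 5.78) and hsa-miR-214# (5.52 ± 0.39, SD, n = 4), the latter with both assays on card B. The gap of mmu-miR-21# was -2.14 in V1, where its partner came only at Ct 32.53 instead of 22.49 to 23.11, and 6.52 to 10.05 in V2, F2 and F3. Partners that differ in the prefix gave gaps as wide, with a mean of 11.41 for hsa-miR-29a#, 7.40 for rno-miR-29c# and 6.75 for hsa-miR-30d#.

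In the 4 pools without V1 and F1 the gap differed between vitrified and fresh blastocysts in both directions. The difference, vitrified minus fresh, had a median of 0.28 cycles over the 19 complete exact pairs and ranged from -2.27 for miR-193 to 2.10 for miR-28. With the partners matched without the prefix, the median over 31 pairs was 0.57 and the largest difference 2.67, for rno-miR-7a#, with gaps of -2.31 and -2.48 in V2 and V3 against -4.64 and -5.50 in F2 and F3. It was 2.57 for hsa-miR-27a#, with 8.25 and 8.23 against 6.64 and 4.70. In both the groups did not overlap, but this held for 12 of the 31 pairs, and for 7 of the 19 exact ones. No test of 2 against 2 pools can go below an exact p of 0.333. In this difference a constant offset between the assays of a pair cancels. Differences in efficiency, or between the cards within a pool, need not cancel. The range of a gap over the 4 pools had a median of 1.91 cycles per pair. Per pool, the median gap was 4.16 in V2 (26 pairs), 4.80 in V3 (30 pairs), 4.17 in F2 (27 pairs) and 3.54 in F3 (26 pairs), but -0.65 in V1 (9 pairs) and -5.83 in F1 (3 pairs).

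No # assay differed between vitrified and fresh blastocysts after adjustment. At least 2 determined pools per group were required, which left 335 miRNA assays, 42 of them # assays, and 0 of these had an adjusted p-value under 0.05 in limma (Benjamini-Hochberg over all 335), where the share over all assays was 0%. At an unadjusted p-value under 0.05 there were 0 of 42, against 0.299% of all assays. The # assays had log2 fold changes, vitrified minus fresh, from -2.94 to 1.77 with a median of -0.27, beside a median of -0.05 over all assays. They were higher in vitrified blastocysts in 15 of 42 cases (35.7%), compared with 48.1% of all assays. When U6 was replaced as the reference by the average of the miRNA assays with a Ct in all 6 pools, 50.0% of the # assays and 54.0% of all assays were higher, so the split depended on the reference. With fewer cells of a type or less RNA per cell, an assay on pooled embryos would give the same change, and these cannot be told apart.

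The 6 # assays with the smallest p-values were all lower in vitrified blastocysts. mmu-miR-125b#, from a relative of the developmental timing miRNA lin-4, had a ΔCt of 18.17 in V1, 17.76 in V2, 16.41 in F2 and 13.65 in F3 and no Ct in V3 and F1. Its log2 fold change was -2.94 (standard error 1.47, adjusted p = 0.998 in limma). The determined pools of the groups did not overlap, but only 2 per group were measured, and F3 alone lay well apart. mmu-miR-138# had a ΔCt of 12.27, 10.53 and 12.29 in the vitrified and 9.27, 11.34 and 9.47 in the fresh pools, with V2 below F2, and a log2 fold change of -1.67 (standard error 1.03), or -1.0 without V1 and F1. The same adjusted p of 0.998 was obtained for all 42.

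mmu-miR-15a#, whose guide arm is known to target Bcl2, had a ΔCt of 20.78, 15.95 and 16.12 in V1, V2 and V3 and of 15.32 and 14.53 in F2 and F3. Its log2 fold change of -2.69 (standard error 1.80) became -1.11 without V1 and F1. hsa-miR-27a# and mmu-miR-24-2# come from clustered hairpins of the miR-23a, miR-27a and miR-24-2 locus. mmu-miR-24-2# had a ΔCt of 16.96 in V1 but 11.06, 11.75, 11.26 and 10.01 in V2, V3, F2 and F3, and its log2 fold change of -2.62 (standard error 2.06) became -0.77 without V1. For hsa-miR-27a# the ΔCt was 14.33, 15.65 and 16.01 in V1, V2 and V3 against 14.90 and 12.03 in F2 and F3, and the change was -1.87 (standard error 1.32). Without V1 it was -2.37, and with V2 and V3 against F2 alone -0.94. rno-miR-125b# had 18.63 and 19.80 in V2 and V3 and 18.79 and 14.75 in F2 and F3, and its change of -2.45 (standard error 1.82) came to -0.43 when V2 and V3 were set against F2 alone.

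With the numbers 2 and 3 only, 39 # assays were among 326 tested. In limma 0 had an adjusted p-value under 0.05, as over all assays (0%), and 1 of 39 had an unadjusted one, a share of 2.56% beside 4.91% of all assays. This was mmu-miR-503#, with a ΔCt of 14.91 and 14.58 in V2 and V3 and of 13.42 and 11.25 in F2 and F3. Both vitrified pools lay above both fresh pools, and the log2 fold change was -2.41 (standard error 0.89, adjusted p = 0.867 in limma). It was -1.33 against F2 alone and -3.50 against F3 alone. V1 and F1 ran the other way, at 12.32 and 14.22, and over all 6 pools the change was -0.98 (standard error 1.22). In these 4 pools 12 of the 39 # assays (30.8%) were higher in vitrified blastocysts, compared with 49.4% of all assays, and their median log2 fold change was -0.44 beside -0.02.

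The pools of the groups did not overlap in 0 of the 13 # assays determined in all 6 pools, where 1.64% of all such assays did so. In V2, V3, F2 and F3 the groups were apart in 10 of 39 # assays (25.6%), beside 28.8% of all assays. mmu-let-7g# and mmu-let-7c-1# were higher in vitrified blastocysts, 5.13% of the # assays beside 18.1% of all assays. The 8 lower ones were hsa-miR-93#, rno-miR-7a#, mmu-miR-322#, hsa-miR-99b#, mmu-miR-503#, mmu-miR-31#, hsa-miR-27a# and mmu-miR-15a#, 20.5% of the # assays beside 10.7% of all assays. None of these differences had an adjusted p-value under 0.05. In mmu-miR-322# the ΔCt was 11.71 and 12.68 in V2 and V3 and 11.62 and 8.49 in F2 and F3, so that V2 and F2 were almost level, and the change of -2.14 came to -0.58 against F2 alone.

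**Figure D4:**
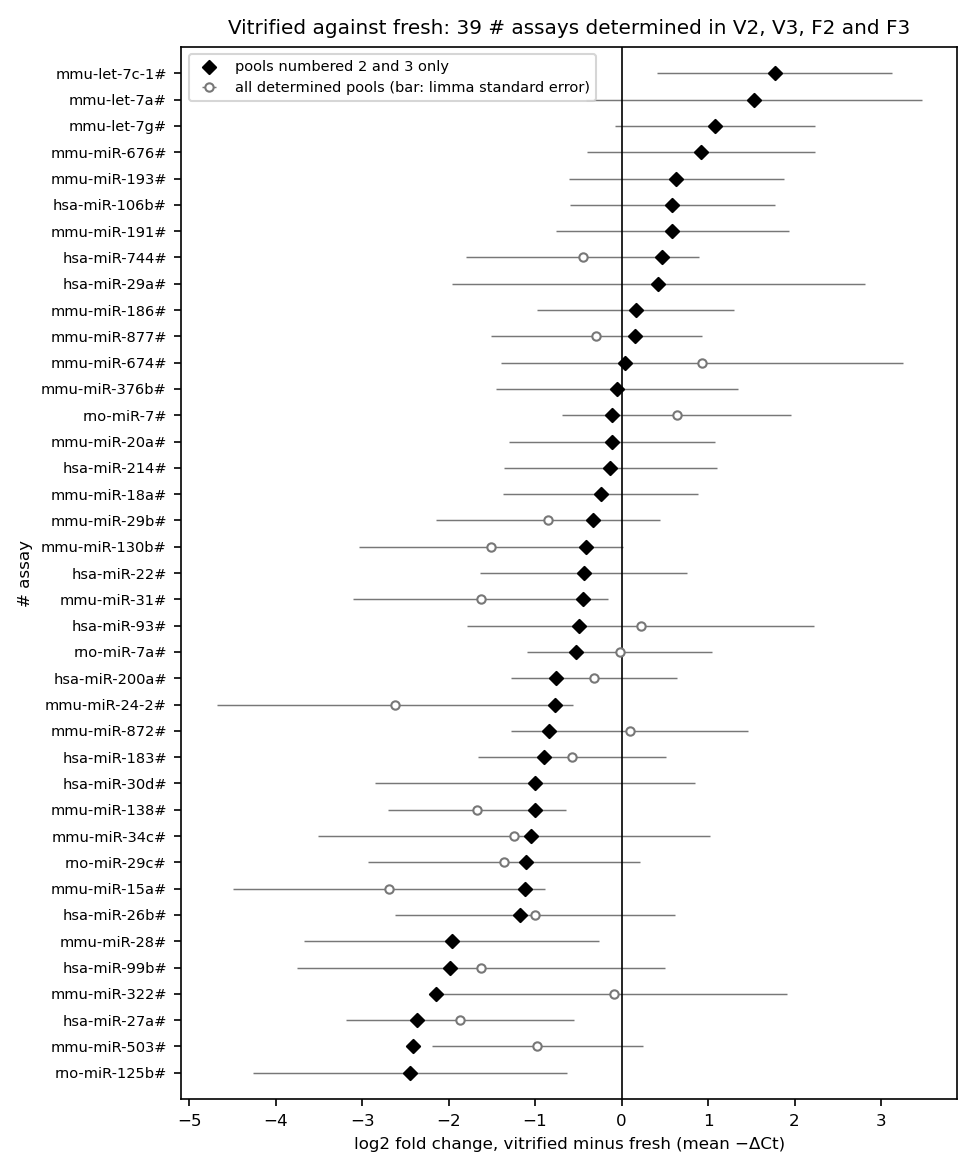
Log2 fold change, vitrified minus fresh (x axis), of the 39 # assays determined in V2, V3, F2 and F3 (y axis), from all determined pools (open circles, with the standard error of limma) and from these 4 pools only (black diamonds, which cover the circle where V1 and F1 have no value). Diamonds lie to the left of 0 for 27 assays and to the right for 12, and the circle of mmu-miR-322# at -0.08 lies far from its diamond at -2.14.

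By hairpin family, 0 assays passed the test in any list. In the let-7 list 4 of 8 # assays were determined, and the 3 tested had log2 fold changes of 1.08 (mmu-let-7g#), 1.53 (mmu-let-7a#) and 1.77 (mmu-let-7c-1#), with a median of 1.53 beside -0.05 over all assays. mmu-let-7a# had a ΔCt of 13.35 and 14.84 in V2 and V3 and of 17.84 and 13.42 in F2 and F3, so that its difference was -0.68 against F3 alone. In the list of miR-15, miR-16, miR-322 and miR-503, 4 of 5 were determined and 3 tested, with a median of -0.98 over all pools and -2.14 without V1 and F1. Of the miR-23, miR-24, miR-27, miR-29 and miR-30 families 11 of 14 were determined and 6 tested, with a median of -1.18, or -0.89 without V1 and F1, and 1 of them above 0.

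Of the 6 # assays of the embryonic miR-290 to miR-295 and miR-302 clusters, 3 were determined and none could be tested. mmu-miR-295# had a Ct of 33.65 in V3 and 31.59 in F2, and mmu-miR-293# one of 35.53 and mmu-miR-302c# one of 37.01, in V3 alone. mmu-miR-294#, mmu-miR-302a# and mmu-miR-302b# had none. Their partners mmu-miR-295, mmu-miR-293 and mmu-miR-294 were determined in all of V2, V3, F2 and F3, at Ct 25.13 to 28.17, 26.10 to 28.76 and 27.68 to 31.01. Thus for miR-293, miR-294 and miR-295 the partner arms were detected in every one of the 4 pools and the # arms in few or none. This did not hold for the miR-302 partners, as mmu-miR-302b was seen in V3 and F2 only, and mmu-miR-302a and mmu-miR-302c in no pool.

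In the miR-17 to miR-92 cluster and its relatives, 5 of 11 # assays were determined and 4 tested, with 2 above 0 and a median log2 fold change of 0.05. Without V1 and F1 the median of the same assays was -0.18, as hsa-miR-93# went from 0.22 to -0.50. mmu-miR-18a# had a Ct of 31.48 and 30.75 in V2 and V3 and 30.69 and 30.93 in F2 and F3, close together in both groups. mmu-miR-17# was seen in V2 (34.98) and F2 (33.92), although its partner mmu-miR-17 came at 21.41 to 22.01 in V2, V3, F2 and F3. hsa-miR-106b# had a ΔCt of 11.01 and 12.07 in V2 and V3 and of 12.41 and 11.85 in F2 and F3, with overlapping groups. mmu-miR-19a#, mmu-miR-92a#, mmu-miR-20b#, rno-miR-25#, hsa-miR-363# and rno-miR-20a# had no Ct, while the partners mmu-miR-92a, mmu-miR-19a, mmu-miR-20b and mmu-miR-25 were at 21.96 to 22.61, 24.97 to 25.42, 24.46 to 24.67 and 25.55 to 26.04 in the 4 pools.

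In the other lists few # assays could be tested. Of the epithelial miR-200, miR-183 and miR-203 hairpins 4 of 6 were determined and 2 tested, with changes of -0.32 for hsa-miR-200a# and -0.57 for hsa-miR-183#, or -0.76 and -0.90 without V1 and F1. Of the imprinted Dlk1-Dio3 locus 5 of 12 were determined and only mmu-miR-376b# was tested, at -0.05. Of the X-linked testis miRNAs 4 of 5 were determined and none tested, and of the neural and muscle miRNAs 5 of 10 were determined and 3 tested, with a median of -0.02, or -0.52 without V1 and F1.

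A Ct in at least 2 fresh pools but no vitrified one was found for 2 # assays, and the opposite pattern for 0. The share of all assays with either pattern was not counted, so nothing particular to the # assays can be read from these counts. mmu-miR-146b#, from a hairpin known for its part in innate immune signalling, had a Ct of 32.91 in F2 and 36.67 in F3. mmu-miR-30b# had 34.53 in F2 and 33.26 in F3. Both were late, and neither had a Ct in F1.

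The # arms of miR-16-1 and miR-136 were rarely determined. mmu-miR-16# (miR-16-1-3p) had a Ct of 34.36 in V2, 33.05 in V3 and 34.91 in F3, and its partner mmu-miR-16, known to halt the cell cycle, had 20.67, 20.84, 20.35 and 20.32 in V2, V3, F2 and F3. The gap was 13.07, 12.65 and 14.39 in V2, V3 and F3. With 1 fresh value mmu-miR-16# did not enter the limma comparison. For miR-136, an imprinted miRNA of the Dlk1-Dio3 locus, mmu-miR-136# had a Ct in V3 alone (36.92) and hsa-miR-136# in F3 alone (35.31), although the partner mmu-miR-136 was determined in all 6 pools, at 29.20 to 35.22.

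Assays named alike did not always give the same result. They were matched by name only, and whether they detect the same molecule was not tested. mmu-miR-20a# was at Ct 31.19, 30.99, 31.16 and 30.65 in V2, V3, F2 and F3, but rno-miR-20a# had no Ct in any pool. mmu-miR-125b# and rno-miR-125b#, both in 4 pools, were not determined in the same ones, since mmu-miR-125b# was seen in V1 and not in V3 and rno-miR-125b# in V3 and not in V1. Both had their lowest Ct in F3, at 30.81 and 31.91. The names do not settle which arm these assays are for. An assay named mmu-miR-125b-3p on card A had a Ct of 36.59 in V1, 34.79 in V2, 36.89 in F2 and 32.25 in F3. It was thus latest in F2, whereas mmu-miR-125b# was latest in V1 (35.83). mmu-miR-376a# had no Ct and hsa-miR-376a# one of 36.10, in F2. mmu-miR-29b#, in all 6 pools at 27.08 to 31.86, stood against rno-miR-29b-1# with 37.04 in V2, 29.07 in V3 and 36.87 in F2. mmu-miR-28# was determined in V2, V3, F2 and F3, at 29.14 to 33.01, while the assay named hsa-miR-28-3p had no Ct in any pool. The last 2 comparisons and that with mmu-miR-125b-3p were chosen after their values were seen.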

How the data were processed

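Raw Ct values of TaqMan Array Rodent MicroRNA A and B cards were used. The authors reverse transcribed 30 ng of RNA per pool, pre-amplified the cDNA, diluted it 1:5 and deposited the Ct score of each of 768 wells per pool, unnormalized, with undetermined wells marked. One cycle is a doubling, so a lower Ct means more template. A deposited table of the authors' own fold changes was not used. The 115 assays, the lists and the tests were chosen with earlier results of these data known.

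A Ct of 40 or more was excluded. ΔCt was taken against the average of the pool's 4 U6 wells on that card. Assays with at least 2 values per group were compared on −ΔCt with lmFit and eBayes (limma 3.58.1, R 4.3.3), with Benjamini-Hochberg adjustment over all 335. Single pairs were compared with 2-sided exact permutation tests. Python 3.11.15, numpy 2.4.6, pandas 2.3.3 and matplotlib 3.10.9 served for tables and plots. On simulated data for 335 assays, 60 of them changed by 4 log2 units, 43 were found and 2 unchanged ones called at the median SD over all 6 pools (1.23), and 60 and 0 at that of V2, V3, F2 and F3 (0.613). Both runs kept all 6 pools with their missing wells, a common SD and independent pools. The comparison of V2 and V3 with F2 and F3 alone was not simulated. Several # assays had a larger SD, such as mmu-miR-34c# (3.07 and 3.47).

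Same-numbered pools deviated together from their group means over 122 assays (correlations of 0.80, 0.78 and 0.67), although deviations within a group sum to 0. The numbers come from the sample labels, and what they mark is not stated. The number of pools limits the precision.

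Arms of hairpins were assigned by miRNA name for 87 of the 115 assays, and sequences, coordinates and gene spans came from RefSeq (GRCm38.p6), whose gene table gives no strand. Named assays were the 10 with the highest mean level among those in all pools, the 6 with the smallest limma p, the exact pairs in 4 or more pools with a gap below 0 and the 5 with the largest gap, assays seen in at least 2 pools of 1 group only, those of miR-16 and miR-136, those of the embryonic and miR-17 to miR-92 lists, and those sharing a name. Others were named after their values were seen.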

Additional observations from a re-analysis of the deposited data

How the results depend on the processing

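Under each alternative run, 0 # assays passed 0.05 after adjustment in limma. At an unadjusted p-value under 0.05 the count was 0 of 42, but 1 in V2, V3, F2 and F3 only and 2 with the pool number as a block and the average of the assays with a Ct in all 6 pools as the reference (1 higher and 1 lower, of 15 among 330 assays). With the block alone it was 0 of 40, beside 4 of all 330 assays, and the block changed no adjusted call. The count of # assays with groups apart, 0 of 13, was 10 without V1 and F1, 7 of 75 with undetermined wells set to 40, and 5 of 75 with these and each later Ct set to 35, while leaving out 1 pool gave 0 to 5, the 5 being without F1 and all lower. The 7 at 40 cycles were all higher in vitrified blastocysts, and at that setting 66.5% of all assays had a log2 fold change above 0. The share of all assays with groups apart was 28.8% without V1 and F1. It was not counted under the other alternatives, so whether their counts are particular to the # assays cannot be told. The count of pairs with the # arm ahead, 6 of 21, was 3 to 6 with each pool left out, the 3 (of 8 pairs) being without F3, and 1 of 2 with both assays on the same card.

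Among the changes of the 10 named assays recomputed under each alternative that gave a value, 5 values reversed, namely mmu-miR-125b# (0.21) with snoRNA202 alone as the reference, mmu-miR-138# (0.27) with the mean of snoRNA135 and snoRNA202, and mmu-miR-15a# (0.038), hsa-miR-27a# (1.35) and mmu-miR-24-2# (1.54) with undetermined wells set to 40. The cause was not tested. Tested # assays determined in all of V2, V3, F2 and F3 and also in V1 or F1 numbered 22. Of these, 5 turned sign without V1 and F1, hsa-miR-93# (to -0.50), mmu-miR-872# (to -0.84), mmu-miR-877# (to 0.16), hsa-miR-744# (to 0.47) and rno-miR-7# (to -0.11). The reference moved the median change of all assays from -0.05 to -0.55 with the mean of both snoRNAs, -0.47 with snoRNA202, 0.12 with the mean of assays and -0.35 with none, and that of the # assays from -0.27 to -0.06, -0.83, 0.01 and -0.44. With undetermined wells set to 40, 58.7% of the # assays and 66.5% of all were higher in vitrified blastocysts. The median arm gap of 4.13 was 1.34 to 4.54 with each pool left out, lowest without V2, 8.22 with undetermined wells at 40, 2.89 with the same-card mean of assays as the reference and 1.57 for the 2 pairs with both assays on the same card. The snoRNA135 well of card B in F1 had no Ct, which dropped that pool's card B under the mean of both snoRNAs, so the count of groups apart was not run there, and snoRNA202 alone was added after seeing the data. A late Ct near 40 rests on few molecules, and an undetermined well gives only a bound.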
